A study of Mus musculus with 24 samples.

Results

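The slow sarcomere isoforms are the versions of the contractile proteins that slow-twitch, oxidative fibres build in place of the fast versions. The set held 8 mouse genes, chosen by symbol: Myh7, Myl2 and Myl3 of the myosin motor, Tnni1, Tnnt1, Tnnc1 and Tpm3 of the thin filament, and Myoz2 of the Z-disc. Of the 14754 genes with a probe set of their own in the platform annotation, 7 belonged to the set. Tpm3, the slow tropomyosin, was not among them and was not analysed here. The levels of the 7 were not used to pick them, but earlier results of these data were known when the set was drawn up.

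The measurements come from the quadriceps, a large thigh muscle, of male C57BL/6J mice (C56BL/6J in the sample labels), with 1 array per mouse. All mice ate a growth diet for 2 weeks and then, from 9 weeks of age, a low fat run-in diet for 3 weeks. They were then split at random over 4 groups of 6: a high fat (HF) palm oil diet with 45 kcal% or a low fat (LF) palm oil diet with 10 kcal% for 3 days (12 weeks old), and the same HF and LF diets for 28 days (16 weeks old). Age and time on the diet rose together and cannot be told apart. The HF mice carried the numbers 1751 to 1772 and the LF mice 2010 to 2025, so anything tied to these number series cannot be told apart from the diet. Within HF the numbers ran from 1767 to 1772 at day 3 and from 1751 to 1758 at day 28. Within LF they ran from 2010 to 2019 at day 3 and from 2020 to 2025 at day 28. Anything tied to the numbers therefore cannot be told apart from the day either. The labels name the quadriceps without saying which of its heads were taken, and the part that dissection plays in any value was not tested.

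Slow fibres contract with a slow myosin heavy chain that is shared with the heart, and pair it with slow or slow-cardiac light chains, troponins and Z-disc proteins. They are rich in mitochondria and myoglobin and resist fatigue. In the mouse they are frequent in postural muscles such as the soleus and rare in the quadriceps, where they lie mostly in the deep part, while most quadriceps fibres carry the fast myosins Myh4, Myh1 and Myh2. In whole muscle, more fibres of a type and more RNA per fibre cannot be told apart.

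Levels are log2 of the deposited intensity, so a step of 1 is a doubling. The 24 arrays were alike (correlations 0.978 to 0.995 over all probe sets, medians 2.71 to 2.79 log2). A gene entered the test when its log2 intensity exceeded 4 on at least 6 arrays, which 5793 genes did, all 7 measured members among them. On LF arrays Tnni1 exceeded 4 on 3 of 12, Myh7 on 5 and Tnnt1 on 5. These did not pass on LF arrays alone and needed HF arrays, where they were high, to be tested. By contrast Myl3 (9 of 12), Tnnc1 (7), Myl2 (12) and Myoz2 (12) would have passed on LF arrays alone. Changes are HF minus LF, with the standard error (SE) from limma and p-values adjusted over all 5793 genes. The 8 genes listed as skeletal muscle markers were all tested, and 6 of them were called at neither day. Of the other two, Actn2, an alpha-actinin of the Z-disc, rose by 0.65 at day 3 and 0.61 at day 28 (adjusted p = 0.00103 and 0.00160), and Mylk2, the skeletal myosin light chain kinase, fell by 0.92 at day 3 (adjusted p = 0.00203) and was at 0.03 at day 28. Ckm, muscle creatine kinase, averaged 13.81 ± 0.04 in HF and 13.83 ± 0.04 in LF muscle at day 3 (SD, n = 6 each).

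The members moved together across the mice, as described further on, and 5 of their promoters are shown, those with a match to the MCAT, TATAAA or MEF2 motif. The windows of Myl2 and Tnni1 held none of these, with TATAAA read on the gene's own strand only, and are not printed. Each is the 250 bases before the start site in the RefSeq table for GRCm38.p6, 5′ to 3′ on the gene's own strand. Capitals mark E-boxes (CANNTG, the core bound by MyoD-type factors) and MCAT elements (CATTCC, or GGAATG on the other strand, the core bound by TEAD factors). No match of either motif overlapped one of the other in these windows. Myh7 lies on the minus strand at chr14:54994627-54994876 (the first of 2 start sites in the table), Myl3 on the plus strand at chr9:110763428-110763677, Tnnt1 on the minus strand at chr7:4515976-4516225, Tnnc1 on the plus strand at chr14:31208062-31208311, and Myoz2 on the minus strand at chr3:123034988-123035237.
Myh7: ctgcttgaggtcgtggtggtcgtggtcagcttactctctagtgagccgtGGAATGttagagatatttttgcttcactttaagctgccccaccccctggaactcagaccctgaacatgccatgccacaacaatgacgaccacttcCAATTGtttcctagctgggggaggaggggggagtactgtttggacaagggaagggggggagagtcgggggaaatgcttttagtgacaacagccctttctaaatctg
Myl3: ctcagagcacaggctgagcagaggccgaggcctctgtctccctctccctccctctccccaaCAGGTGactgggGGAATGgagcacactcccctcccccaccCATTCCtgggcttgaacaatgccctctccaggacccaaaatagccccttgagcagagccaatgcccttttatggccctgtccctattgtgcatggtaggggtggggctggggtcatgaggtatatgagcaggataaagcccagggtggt
Tnnt1: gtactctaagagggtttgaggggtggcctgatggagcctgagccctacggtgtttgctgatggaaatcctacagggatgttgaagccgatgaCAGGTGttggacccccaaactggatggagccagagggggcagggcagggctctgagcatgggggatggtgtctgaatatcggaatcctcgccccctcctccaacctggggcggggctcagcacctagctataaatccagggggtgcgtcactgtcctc
Tnnc1: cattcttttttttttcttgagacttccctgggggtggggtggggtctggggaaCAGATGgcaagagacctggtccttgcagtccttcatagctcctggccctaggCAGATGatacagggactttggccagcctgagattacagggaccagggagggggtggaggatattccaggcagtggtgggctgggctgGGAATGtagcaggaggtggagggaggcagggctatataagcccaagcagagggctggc
Myoz2: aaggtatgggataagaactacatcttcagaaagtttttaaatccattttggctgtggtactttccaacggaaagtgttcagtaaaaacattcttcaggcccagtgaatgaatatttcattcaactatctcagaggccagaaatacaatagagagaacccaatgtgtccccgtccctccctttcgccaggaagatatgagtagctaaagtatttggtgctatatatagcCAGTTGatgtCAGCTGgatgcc

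The 7 measured members have 10 windows in the table. The windows of Myh7 overlap each other, as do those of Tnni1, so some matches lie in both. An E-box was found in 10 of 10, against 66.2% of the 32851 promoters in the table. MCAT was found in 3 of 10 (in Myh7, Myl3 and Tnnc1), against 12.6% of all promoters. The NFAT core GGAAA was found in 5 of 10, against 55.6%. By member, 7 of 7 held an E-box, 3 of 7 MCAT and 4 of 7 the NFAT core. The Myh7 MCAT began 201 bases before the start and that of Tnnc1 58 bases before it, while Myl3 had a pair, at 177 and 149 bases. Tnnt1 held TATAAA at 30 bases before the start, a motif of 7.59% of promoters, and Myoz2 a MEF2 motif at 33 bases, which 2.92% hold. The last 16 bases of the Myoz2 window lie inside the outermost annotated end of the gene, so its positions hold for the start site of the table only. Among the windows counted but not printed, the second of Myh7 has 77 bases inside its gene. Both windows of Tnni1 and the second of Myl2 lie wholly inside theirs. All motif hits given here are matches of letters and describe no binding. They were sought on either strand, except TATAAA, which was read on the gene's own strand only.

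The slow myosin genes of the thick filament were far higher on HF at both days. Myh7, the slow (beta) myosin heavy chain, ran from 7.96 to 11.35 on HF at day 3 with a median of 9.48, against 2.23 to 7.23 with a median of 2.70 on LF. On LF, 4 of the 6 mice lay below 3 and the other two near 7, while every HF mouse lay above all LF mice. The difference was 5.60 ± 0.92 log2 (SE), a 48.6-fold higher mean, with an adjusted p of 0.000290 and a 95% interval of 3.69 to 7.51. At day 28 Myh7 spanned 8.45 to 9.84 on HF (median 9.53), against 2.36 to 7.86 on LF (median 4.08). Again the groups did not overlap, and the HF mice were closer to each other than the LF mice (SD 0.52 against 2.09, untested). The mean was 5.02 log2 higher on HF, or 32.4-fold (adjusted p = 0.000759). Myh7 had the largest rise of all 5793 genes at both days.

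Myl2, the regulatory light chain of slow and ventricular myosin, exceeded a log2 intensity of 4 on every array of both diets. At day 3 it ran from 9.66 to 12.06 on HF (median 10.50), against 4.18 to 8.66 on LF (median 6.83), and at day 28 from 10.07 to 10.83 (median 10.59), against 5.05 to 8.89 (median 6.76). No HF mouse fell into the LF range at either day. The rise was 4.01 ± 0.66 log2 at day 3 (16.1-fold, adjusted p = 0.000298) and 3.66 at day 28 (12.6-fold, adjusted p = 0.000664).

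Myl3, the essential light chain of the same motors, had the widest scatter of the members on LF. At day 3 it spanned 10.28 to 12.36 on HF (median 10.69), against 3.30 to 9.07 on LF (median 4.86). At day 28 the 6 HF mice lay within 10.63 to 11.14 (median 10.91, SD 0.20), against 3.39 to 9.29 on LF (median 6.34, SD 2.31). The HF mice were thus tightly grouped at day 28 while the LF mice were spread widely, still without overlap. The rise was 5.27 ± 0.95 log2 at day 3 (38.5-fold, adjusted p = 0.000706) and 4.67 at day 28 (25.5-fold, adjusted p = 0.00184).

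**Figure D1:**
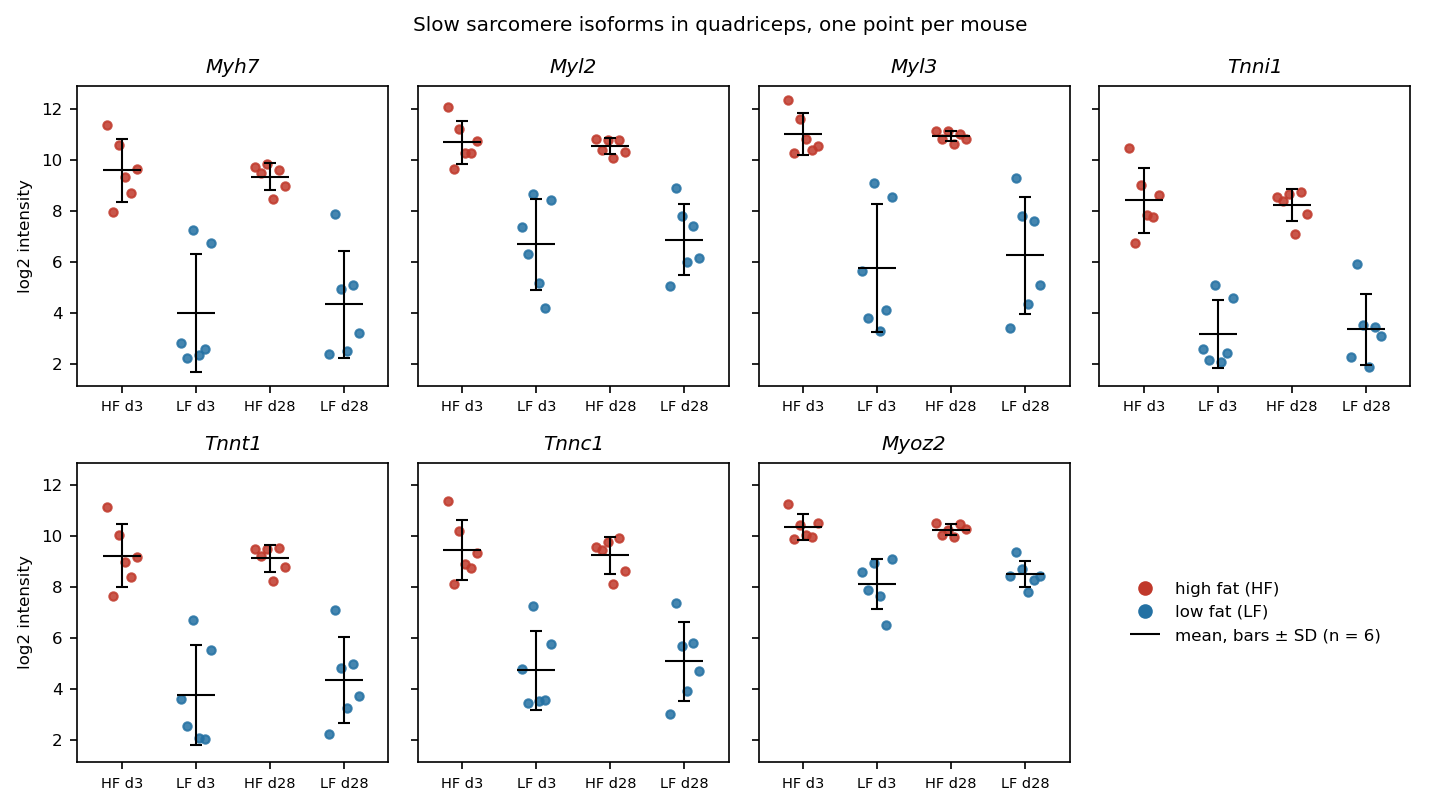
Log2 intensity (vertical axis) of the 7 measured slow isoforms in each mouse, by group of 6 (d3 and d28 are day 3 and day 28), with the mean and SD as bars. In every panel the HF mice lie above all LF mice at both days, and Myh7 spans 7.96 to 11.35 on HF and 2.23 to 7.23 on LF at day 3.

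The slow troponins of the thin filament followed. Tnni1, the slow inhibitory subunit that blocks actin when calcium is low, was seldom above the filter on LF. It ran from 6.73 to 10.45 on HF at day 3 (median 8.23), against 2.07 to 5.10 on LF (median 2.51). At day 28 the range was 7.08 to 8.74 on HF (median 8.46), against 1.86 to 5.89 on LF (median 3.25). On LF the low mice sat in the lower part of their array, at percentiles down to 36.0 at day 3 and 27.8 at day 28, and values that low depend on the background correction. The rise was 5.25 ± 0.65 log2 at day 3 (38.1-fold, adjusted p = 1.33e-05) and 4.87 at day 28 (29.3-fold, adjusted p = 3.50e-05), and Tnni1 had the smallest adjusted p of the members at both days.

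Tnnt1, the slow subunit that anchors the troponin complex to tropomyosin, had the next largest rise after Myh7 at day 3. Its log2 intensity was 7.64 to 11.15 on HF at day 3 (median 9.09), against 2.03 to 6.71 on LF (median 3.08), and at day 28 it was 8.25 to 9.54 (median 9.36), against 2.26 to 7.10 (median 4.28). The lowest HF mouse stood 0.93 above the highest LF mouse at day 3 and 1.15 above it at day 28. The rise came to 5.48 ± 0.79 log2 (44.6-fold, adjusted p = 7.40e-05) at day 3 and 4.77 (27.3-fold, adjusted p = 0.000282) at day 28.

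Tnnc1, the calcium-binding subunit of slow and cardiac troponin, spanned 8.11 to 11.38 on HF at day 3 (median 9.13), against 3.46 to 7.26 on LF (median 4.19). At day 28 it spanned 8.13 to 9.94 on HF (median 9.50), against 3.04 to 7.39 on LF (median 5.22). The groups stood apart at both days, with a gap of 0.84 at day 3 and 0.74 at day 28. The rise was 4.72 ± 0.70 log2 at day 3 (26.3-fold, adjusted p = 9.10e-05) and 4.15 at day 28 (17.7-fold, adjusted p = 0.000339).

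Myoz2 (calsarcin-1), which ties calcineurin to the Z-disc of slow and cardiac muscle, had the smallest rise of the members. At day 3 it ran from 9.90 to 11.27 on HF (median 10.25), against 6.50 to 9.12 on LF (median 8.25). At day 28 it ran from 9.98 to 10.53 on HF (median 10.26), against 7.83 to 9.38 on LF (median 8.43). The ranges did not touch, although the lowest HF and highest LF mouse differed by only 0.78 at day 3 and 0.61 at day 28. The rise was 2.24 ± 0.34 log2 at day 3 (4.73-fold, adjusted p = 0.000111) and 1.75 at day 28 (3.35-fold, adjusted p = 0.00119).

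All 7 measured members rose at both days, where 7.99% of tested genes were called higher at day 3 and 5.35% at day 28. The counts and places given here include Myh7, Tnni1 and Tnnt1, which needed HF arrays, where they were high, to enter the test. Myl2, Myl3, Tnnc1 and Myoz2 would have passed on LF arrays alone, and each was called higher at both days. The median change of all 7 measured members was 5.25 log2 at day 3 and 4.67 at day 28, against -0.01 and 0.01 over all genes tested. Ranked by rise among the 5793 genes, Myh7, Tnnt1, Myl3, Tnni1, Tnnc1 and Myl2 took places 1 to 6 at day 3 and again, in another order, at day 28, while Myoz2 was at place 12 and place 17. In each of the 7 all HF mice lay above all LF mice of the same day, as did 3.5% of tested genes at day 3 and 3.49% at day 28. Across the days too, the lowest of 12 HF mice exceeded the highest of 12 LF mice for 7 of 7 members, as for 1.04% of tested genes. An exact two-sided permutation test of each member gave p = 0.00216 at each day, the smallest value that 6 mice against 6 allow. Groups without overlap always give this value, so it restates the separation above, and the members were measured in the same mice. The size of the rises of dim members depends on the scale: with 16 added to each intensity before log2, Myh7 rose by 4.29 log2 at day 3 and 3.94 at day 28, Tnni1 by 3.73 and 3.46, Tnnt1 by 4.15 and 3.80, Tnnc1 by 3.93 and 3.49 and Myl3 by 4.62 and 4.19. Single LF mice also weigh on it. Without LF replicate 3 the day 3 rise was 6.25 for Myh7, 5.93 for Myl3 and 6.07 for Tnnt1, and without LF replicate 2 the day 28 rise was 5.73 for Myh7 and 5.28 for Myl3. With array weights Myh7 rose by 4.99 and 4.35 and Myl3 by 4.62 and 4.06. Averaged over the days, the HF effect ranged from 1.99 log2 for Myoz2 to 5.31 for Myh7, and 7 of 7 members rose, against 10.7% of tested genes.

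No member passed a test of change over time. The change in the HF effect, day 28 minus day 3, was -0.58 log2 for Myh7 with a 95% interval of -3.28 to 2.12 (adjusted p = 0.852). For Myoz2 it was -0.50 with an interval of -1.49 to 0.49 (adjusted p = 0.611), and the other five members lay between -0.71 (Tnnt1) and -0.35 (Myl2). By limma 0 of 7 members passed this interaction test, with 0 at an unadjusted p under 0.05, against 1.38% of tested genes called. The interval of Myh7 is wide enough to hold a several-fold change either way. On HF the difference of day 28 from day 3 was -0.25 log2 for Myh7 (adjusted p = 0.935), and between -0.21 and -0.08 for the others, with 0 of 7 called by limma and 0 at an unadjusted p under 0.05 (0.552% of tested genes were called). On LF it was 0.33 log2 for Myh7 (adjusted p = 0.894) and between 0.19 (Tnni1) and 0.60 (Tnnt1) for the others, again with 0 of 7 called and 0 at an unadjusted p under 0.05 (0.345% of tested genes were called).

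The members ranked the mice within a group much alike. On HF at day 3, replicate 1 was the highest and replicate 2 the lowest mouse for 7 of 7 members. On LF at day 3, replicates 3 and 6 were the top pair for all 7, and at day 28 the LF mouse replicate 2 was the highest for all 7. HF replicate 4 was the lowest at day 28 for all 7. With each group's mean removed, the 21 pairs of members correlated at r = 0.74 to 0.98 over the 24 arrays (median 0.91), closest for Tnnt1 with Tnnc1 and least for Myl3 with Myoz2. Within the 12 HF arrays r ran from 0.86 to 0.99, and within the 12 LF arrays from 0.73 to 0.99. These points share arrays and normalization, so r is given as a description.

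**Figure D2:**
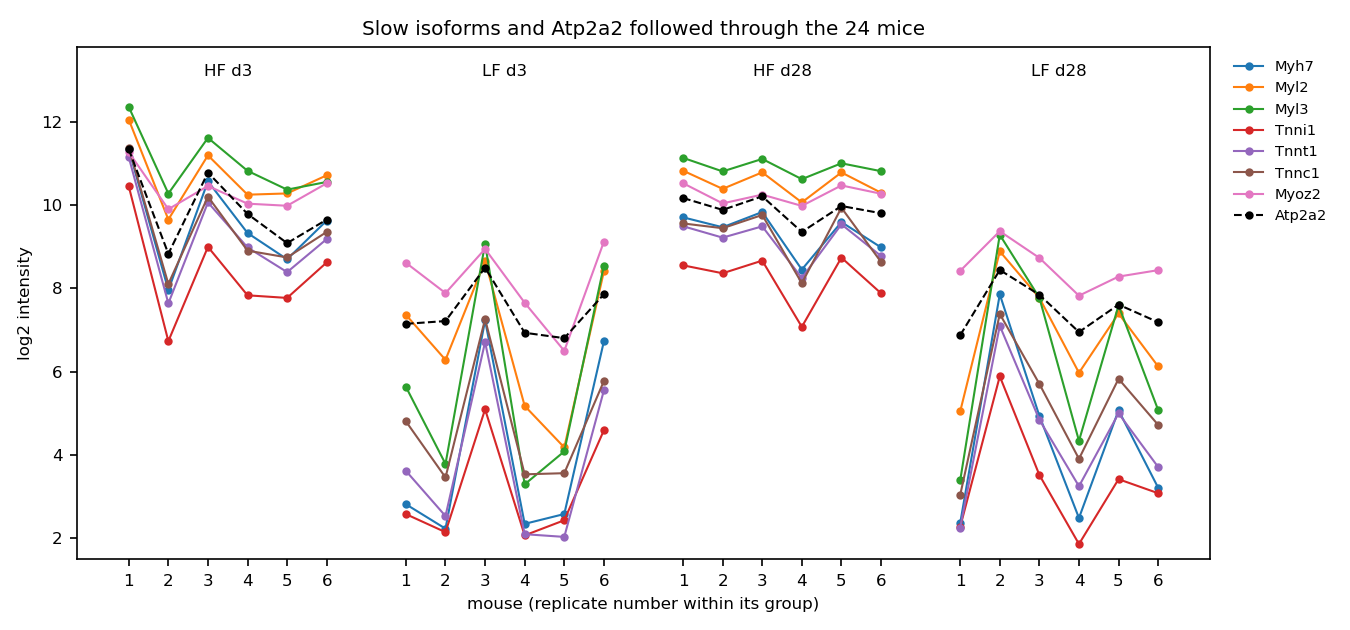
Log2 intensity (vertical axis) of the 7 members (solid lines) and of Atp2a2 (dashed) in each of the 24 mice (horizontal axis). Lines join the replicates of a group for the eye alone, since replicates have no order. The lines move in parallel within groups, with replicate 1 at the top and replicate 2 at the bottom on HF at day 3.

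**Figure D3:**
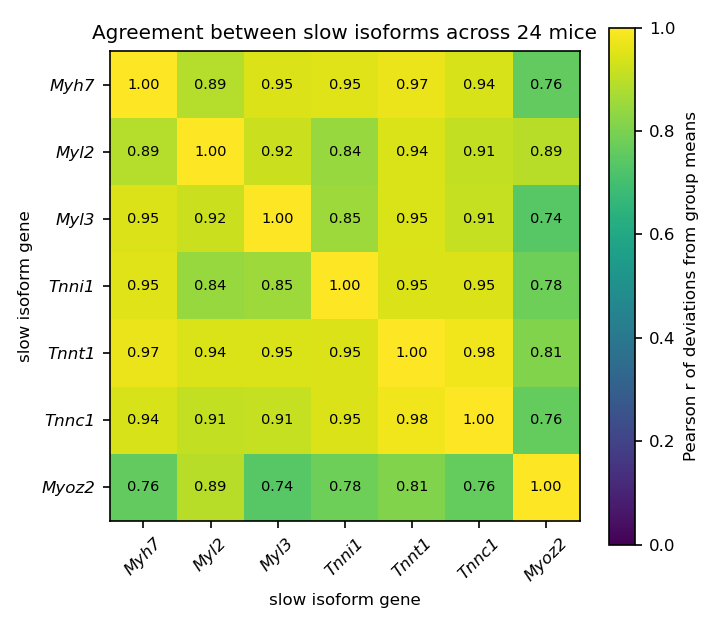
Pearson r (colour and number) between each pair of the 7 members over 24 arrays, after each group's mean was removed. The lowest value is 0.74, for Myl3 with Myoz2, and the highest off the diagonal 0.98, for Tnnt1 with Tnnc1.

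The scatter on LF was large for Myh7: its SD was 1.23 log2 on HF and 2.33 on LF at day 3, and 0.52 on HF and 2.09 on LF at day 28. Members differed in this: at day 3 the SD of Tnni1 was 1.27 on HF and 1.33 on LF, and that of Tnnc1 1.18 and 1.54. The log2 scatter of dim members on LF depends on the background correction. At least 1 member fell below the median probe set of its array in 0 of 6 HF mice and 4 of 6 LF mice at day 3, and in 0 of 6 HF mice and 2 of 6 LF mice at day 28. Adding the linear intensities of the 7 members gave 3840 to 20954 on HF and 153 to 1882 on LF at day 3, and 4735 to 8240 on HF and 344 to 2361 on LF at day 28.

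The 6 tested genes outside the set whose deviations ran closest to the mean of the members, over 24 arrays, were Atp2a2 (r = 0.89), Pdlim1 (0.85), Slc41a1 (0.81), Smtn (0.81), Bdh1 (0.79) and Prrx1 (0.78). Atp2a2, the calcium pump of slow and cardiac sarcoplasmic reticulum, averaged 9.92 ± 0.97 on HF and 7.41 ± 0.65 on LF at day 3, and 9.90 ± 0.31 on HF and 7.49 ± 0.60 on LF at day 28 (SD, n = 6 each). Its rise was 2.50 ± 0.37 log2 at day 3 and 2.42 at day 28 (adjusted p = 8.53e-05 and 0.000115). Pdlim1, a PDZ and LIM domain protein of the actin cytoskeleton, rose by 1.49 and 1.06, and Bdh1, the mitochondrial enzyme that handles the ketone body 3-hydroxybutyrate, by 2.04 and 1.51. Slc41a1, a magnesium transporter, rose by 0.48 and 0.53. Smtn (smoothelin) was at 0.35 and 0.28 without passing (adjusted p = 0.0529 and 0.147), and the homeobox gene Prrx1 rose at day 28 by 0.67 (adjusted p = 0.00108) but not at day 3 (0.31, adjusted p = 0.115).

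A fall of the fast counterparts was not detected. Of 17 listed, 14 were tested, and by limma 0 were called lower at either day, with 0 lower at an unadjusted p under 0.05, against 6.87% of tested genes at day 3 and 7.18% at day 28. Their median change was 0.00 log2 at day 3 and 0.03 at day 28. Myh4, the IIb heavy chain, averaged 13.26 ± 0.04 on HF and 13.34 ± 0.06 on LF at day 3 (SD, n = 6 each) and changed by -0.08 ± 0.04 log2 (SE; adjusted p = 0.230). The direct partners of the members gave similarly small values at day 3 and day 28: Mylpf, the fast regulatory light chain, 0.07 and 0.02; Tnni2 -0.02 and 0.03; Tnnt3 0.02 and 0.05; Tnnc2 -0.02 and 0.04; and Myoz1 -0.03 and -0.01, none of them called. The probe sets of Myh4, Mylpf, Tnni2, Tnnt3 and Tnnc2 lay above percentile 99.9 of every array, and whether probe sets this bright still answer to change in proportion was not tested.

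Myh2, the heavy chain of fast oxidative IIa fibres, was the exception at both days. It averaged 13.07 ± 0.14 on HF and 11.88 ± 0.77 on LF at day 3, and 13.04 ± 0.08 on HF and 12.05 ± 0.32 on LF at day 28 (SD, n = 6 each). All 12 HF mice lay above all 12 LF mice, and the rise was 1.18 ± 0.23 log2 at day 3 (adjusted p = 0.00155) and 0.99 at day 28 (adjusted p = 0.00616). Tpm1, the alpha tropomyosin, rose by 0.57 at day 3 (adjusted p = 0.00103) and was at 0.29 at day 28 (adjusted p = 0.0880). Its probe set was the dimmest of the tested fast counterparts, averaging 6.68 on HF and 6.11 on LF at day 3 (percentiles 75.3 to 84.1). Which Tpm1 transcripts it reads was not tested.

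**Figure D4:**
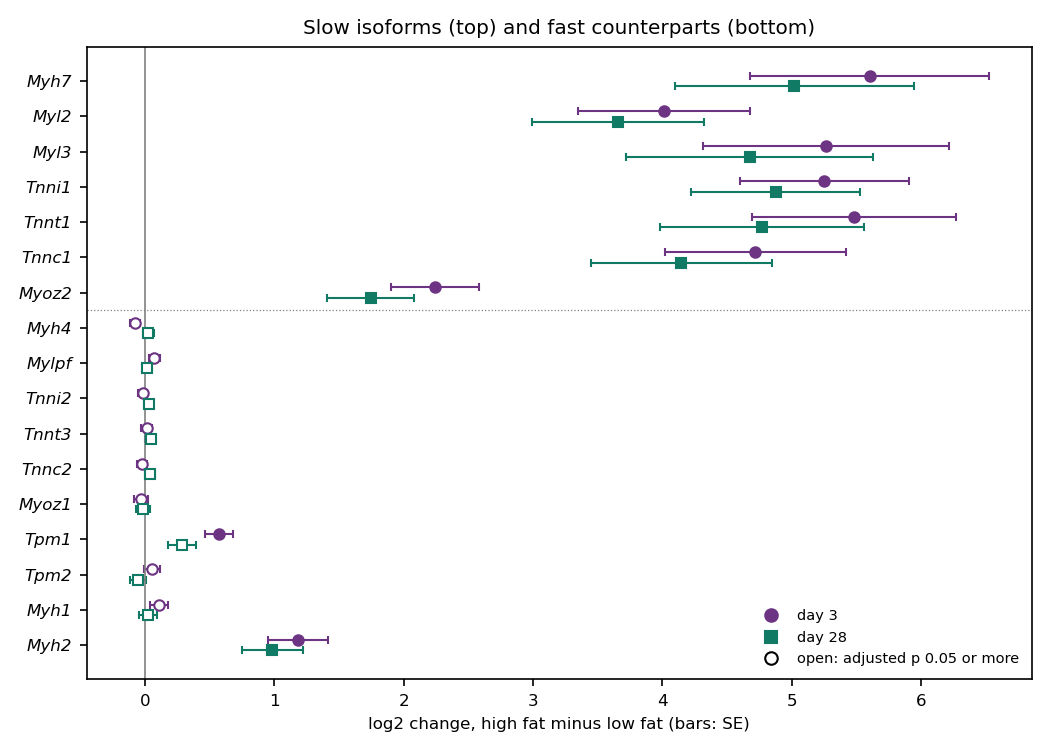
Change in log2 intensity, HF minus LF (horizontal axis, bars are SE), for the 7 members (upper rows) and 10 fast counterparts (lower rows) at day 3 (circles) and day 28 (squares); open symbols did not pass. The members lie between 1.75 and 5.60, while Myh4 lies at -0.08 and 0.03 and Myh2 at 1.18 and 0.99.

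Other genes of slow fibres rose in part. Of 14 listed, 9 were tested: 7 rose at day 3 and 5 at day 28, against 7.99% and 5.35% of all tested genes called higher. By limma 0 fell (0 lower at an unadjusted p under 0.05), and the median was 0.76 and 0.40 log2. Besides Atp2a2, Casq2, the slow and cardiac calcium buffer of the sarcoplasmic reticulum, rose by 2.04 ± 0.28 at day 3 and 1.84 at day 28, and Myom3, an M-band protein of slow and intermediate fibres, by 2.38 ± 0.32 and 1.80. Mb, myoglobin, averaged 13.24 ± 0.11 on HF and 12.82 ± 0.21 on LF at day 3 (SD, n = 6 each), a rise of 0.42, with 0.40 at day 28. Csrp3, a Z-disc protein that responds to stretch, rose by 1.39 at day 3 (adjusted p = 0.0250) and was at 0.999 at day 28 (adjusted p = 0.123). Ankrd2 (0.76 and 0.23) and Car3, the carbonic anhydrase of slow fibres (0.40 and 0.28), rose at day 3 only by the test, Mybpc1 (0.34 and 0.39) at day 28 only, and the change of the HF effect between the days was called by limma for 0 of the 9 (0 at an unadjusted p under 0.05). Myom3 exceeded 4 on 12 of 12 HF and 5 of 12 LF arrays and so entered the test through HF arrays. The calls of Csrp3 and Ankrd2 at day 3 and of Mybpc1 at day 28 were lost when some single mice were left out. Smpx was at -0.07 and -0.04. Pln and Sln, the pump inhibitors, stayed below the filter.

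Among 19 listed regulators of fibre type, 11 were tested, of which 2 rose and 2 fell at day 3, and 3 rose and 1 fell at day 28. Over all tested genes, 7.99% were called higher and 6.87% lower at day 3, and 5.35% higher and 7.18% lower at day 28. The 1 fall among 11 at day 28 lies near that share. Esrrg, an orphan nuclear receptor tied to oxidative fibres, averaged 5.33 ± 0.48 on HF and 4.45 ± 0.29 on LF at day 3 and rose by 0.88 ± 0.16 log2 (adjusted p = 0.000738), with 0.80 at day 28 (adjusted p = 0.00147). Nfatc1, the calcineurin target that drives the slow programme, rose by 0.26 and 0.31 (adjusted p = 0.0276 and 0.00944), the day 3 call being lost when some single mice were left out. Tbx15, a factor of fast glycolytic fibres, fell by 0.43 and by 0.39 (adjusted p = 0.00241 and 0.00476). Mef2d fell at day 3 by 0.48 (adjusted p = 0.0174) and Six4 rose at day 28 by 0.50 (adjusted p = 0.0126). Sox6, a repressor of slow genes, was at -0.16 and 0.03, and the coactivator Ppargc1a at 0.85 and 0.45, neither called at either day (adjusted p = 0.115 and 0.837 for Sox6, 0.111 and 0.471 for Ppargc1a).

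**Figure D5:**
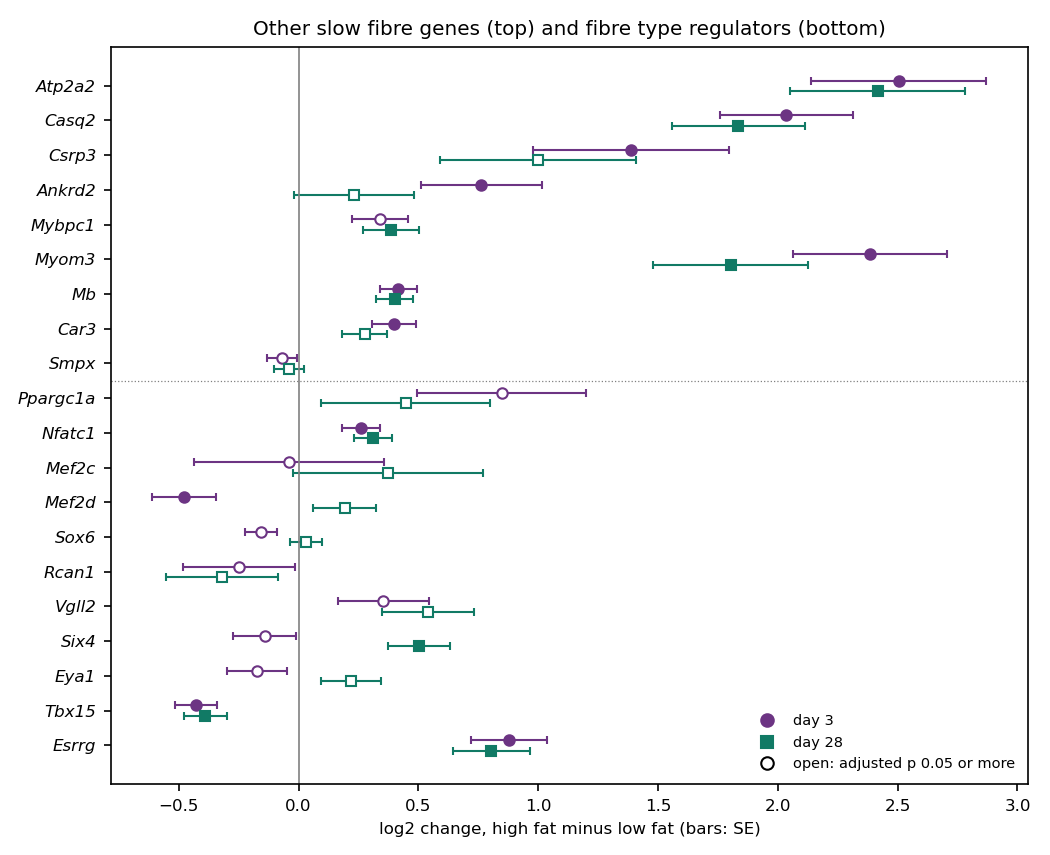
Change in log2 intensity, HF minus LF (horizontal axis, bars are SE), for the 9 tested other slow fibre genes (upper rows) and the 11 tested regulators (lower rows) at day 3 (circles) and day 28 (squares); open symbols did not pass. Atp2a2, Casq2 and Myom3 lie between 1.80 and 2.50, and the called regulators at day 28 between -0.39 (Tbx15) and 0.80 (Esrrg).

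Markers of the heart, which also makes several members, were near the floor. Of 12 cardiac markers, 11 stayed below the filter, and 10 of these, among them the cardiac alpha heavy chain Myh6, the natriuretic peptides Nppa and Nppb and the cardiac Tnni3, reached at most 2.34 log2 on any array. The remaining one, Tnnt2, cardiac troponin T, reached 4.16. The list's summed intensity was 45.1 to 72.7 on HF and 40.0 to 45.5 on LF at day 3, and 52.2 to 64.3 on HF and 39.0 to 45.9 on LF at day 28. The single tested gene, Myl4, the atrial and embryonic light chain, averaged 4.25 ± 0.46 on HF and 2.83 ± 0.33 on LF at day 3 (SD, n = 6 each) and rose by 1.42 and, at day 28, by 1.33 log2. It exceeded 4 on 9 of 12 HF and 0 of 12 LF arrays, so it entered the test through HF arrays alone and had to differ. Of 9 genes of developing or denervated muscle, 3 were tested, and Chrna1, an acetylcholine receptor subunit, rose by 0.78 at both days. The other two were not called: the cardiac actin Actc1 was at 0.29 and -0.30 and the muscle determination factor Myod1 at -0.07 and -0.55.

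Other cell types moved with the diet as well, and their part in the members' values was not tested. For comparison, 7.99% of all tested genes were called higher at day 3 and 5.35% at day 28. Of 8 tested tendon and fibroblast markers, 7 rose at day 3 and 3 at day 28, Tnmd, the tendon protein tenomodulin, by 1.12 and 0.70 log2. Its day 28 call was lost in 7 of the 12 fits that left out a mouse of the groups compared. Their summed intensity (9 genes) was 5458 to 10095 on HF and 3479 to 8659 on LF at day 3, and 4558 to 5252 on HF and 3159 to 6368 on LF at day 28. Endothelial markers rose in 5 of 6 at day 3 and 0 of 6 at day 28 by limma (5 of 6 at an unadjusted p under 0.05), with sums of 748 to 874 on HF and 585 to 688 on LF at day 3, and 706 to 943 on HF and 609 to 778 on LF at day 28. Smooth muscle and pericyte markers rose in 3 of 4 at day 3 and 1 of 4 at day 28, with sums of 768 to 1193 on HF and 477 to 837 on LF at day 3, and 754 to 1075 on HF and 492 to 683 on LF at day 28.

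Adipocyte markers fell in 3 of 7 at day 3 and 7 of 7 at day 28, against 6.87% and 7.18% of all tested genes called lower. Of these 7, Ucp1 exceeded 4 on 1 HF and 7 LF arrays and Cidea on 1 HF and 9 LF arrays, so both entered the test through LF arrays and had to differ. The list had sums of 3194 to 9760 on HF and 3762 to 11173 on LF at day 3, and 2757 to 4157 on HF and 7223 to 14029 on LF at day 28. Macrophage markers fell in 1 of 6 at day 3 and 6 of 6 at day 28, with sums of 668 to 1415 on HF and 861 to 2041 on LF at day 3, and 610 to 1056 on HF and 1018 to 2166 on LF at day 28. Within groups the macrophage markers also ran against the members over the 24 arrays, from r = -0.62 for Cd163 to -0.50 for C1qa. The adipocyte markers, by contrast, had r between -0.09 and 0.01 with the members. The other lists were mixed: tendon and fibroblast markers ran from -0.24 (Thbs4) to 0.49 (Scx) and endothelial markers from -0.19 (Pecam1) to 0.46 (Kdr). Smooth muscle and pericyte markers ran from -0.07 (Pdgfrb) to 0.40 (Rgs5). No nerve marker passed the filter, and the sum of the 2 with a probe set was 7.77 to 10.7 on HF and 6.96 to 7.72 on LF at day 3, and 7.73 to 10.5 on HF and 6.80 to 8.05 on LF at day 28. RNA integrity, read as the log2 ratio of 3′ to 5′ beta-actin control probes, had medians of 0.22 on HF and 0.18 on LF at day 3, and 0.17 on HF and 0.13 on LF at day 28.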

How the data were processed

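Each array is 1 mouse, so replicates are separate animals. The authors deposited 1 linear intensity per probe set and array, computed with GCRMA per the submitters' processing notes (version, probe definition and genome build not given in the sources used here). GCRMA corrects the background from probe sequence, so levels and folds of dim probe sets depend on that step. Of 16361 probe sets, 64 controls, 589 with several genes and 937 not listed were left out, and 14771 with 1 symbol gave 14754 genes (the brightest probe set was kept). Here log2 was taken with no offset. Group means over all 24 arrays were fitted with limma 3.58.1 (lmFit, eBayes) in R 4.3.3, two-sided, Benjamini-Hochberg over 5793 genes, called at an adjusted p under 0.05, and the fit was tested on simulated data. Exact tests used scipy 1.17.1.

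The members and lists were chosen with earlier results of these data known. Named were all members, the genes of the lists, and the 6 genes of highest correlation with the mean of the members. Alternatives covered normalization, offset, filters, arrays in the fit, array weights, variance prior, replicate block, RNA quality and each array left out. For LF day 3 replicate 1 the labels' extraction text names no DNase step. The number of arrays limits the precision.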

Additional observations from a re-analysis of the deposited data

Results flagged for a closer look

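A probe set outside the comparisons, annotated jointly to Tnnc1 and to Tnc (tenascin C, an extracellular matrix protein), was singled out because its signal on HF at day 3 lay above that on LF. It averaged 4.95 ± 0.42 log2 on HF and 3.91 ± 0.51 on LF at day 3 (SD, n = 6 each), a difference of 1.04, given as a description since it is what singled the probe set out. At day 28 it averaged 3.91 ± 0.34 on HF and 4.01 ± 0.14 on LF, a difference of -0.09. The probe set is named by a gene number that is not that of Tnnc1, whose own probe set gave the Tnnc1 values above. Which gene its probes read was not tested. No single mouse stood apart from its group in any of the 28 sets of 6 values of the members, by a gap test that chance trips in about 1 of 20 sets. The test looks at single mice and cannot see a pair that stands apart together, as LF replicates 3 and 6 did at day 3 for Myh7.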

How the results depend on the processing

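The HF against LF result of the members kept its direction and passed the test in all 294 member values computed under the alternatives at either day, between 1.54 and 6.25 log2 with adjusted p up to 0.0140, and the count of members called was 7 in all 42 recounts. With the replicate block it was 7 at both days. The replicate numbers were not treated as pairs in the main fit. Of 36 same-numbered pairs, 15 correlated above 0.1 (range -0.38 to 0.54), and 4 of 24 arrays matched best with their own number. Whether some numbers mark a shared step was not tested.

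The 518 day and interaction values of the members gave 0 calls by limma (lowest adjusted p 0.436), and their signs were not stable. With single arrays left out, the day 28 against day 3 value on HF ran from -0.58 to 0.10 for Myh7, -0.37 to 0.11 for Myl2, -0.23 to 0.19 for Myl3, -0.52 to 0.22 for Tnni1, -0.43 to 0.28 for Tnnt1, -0.47 to 0.18 for Tnnc1 and -0.20 to 0.0769 for Myoz2. On LF it ran from -0.37 to 0.98 for Myh7, -0.31 to 0.58 for Myl2, -0.10 to 1.17 for Myl3, -0.32 to 0.58 for Tnni1 and -0.0930 to 0.87 for Tnnc1, and with array weights Myl2 was at -0.0147. The interaction ran from -1.23 to 0.12 for Myh7, -0.75 to 0.15 for Myl2, -1.26 to 0.0171 for Myl3 and -0.76 to 0.13 for Tnni1.

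Of the other named genes, values near 0 changed sign. At day 28 quantile normalization gave -0.025 for Myh4, -0.0115 for Mylpf and -0.00629 for Myh1, and leaving out the 4 arrays of highest beta-actin ratio gave -0.00798 for Myh1 and -0.0169 for Sox6. At day 3 array weights gave -0.00641 for Tnnt3. With single arrays left out, Myh1 ran from -0.0163 to 0.0778 and Sox6 from -0.0104 to 0.0698 at day 28, Myoz1 from -0.0524 to 0.0213 at day 3 and from -0.0292 to 0.00144 at day 28, and Tnnt3 from -0.000178 to 0.0304 at day 3. Some calls turned on single arrays. At day 3 Ankrd2 missed the threshold in 8 of the 12 refits (adjusted p up to 0.112), Nfatc1 in 5 (up to 0.0725) and Csrp3 in 3 (up to 0.0606), and at day 28 Tnmd missed it in 7 (up to 0.108) and Mybpc1 in 4 (up to 0.0848). Smtn (3 refits) and Mybpc1 (2) passed at day 3 and Car3 (2) at day 28. The causes were not tested.

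Counts over all genes moved more. At day 3, 507 genes were called with the arrays compared alone, against 861. The interaction called 6 genes with no filter, 278 with array weights, 176 with the replicate block and 6 without the 4 arrays of highest beta-actin ratio, against 80. Day 28 against day 3 on HF called 9, 106 and 5 genes with no filter, array weights and without those 4 arrays, against 32. On LF it called 40 with quantile normalization, 3 with no filter, 0 with the arrays compared alone, 132 with array weights, 32 with the replicate block and 0 without those 4 arrays, against 20. With single arrays left out the counts ran from 19 to 115 for the interaction, 3 to 51 for the days on HF and 0 to 47 on LF.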
